A study of Mus musculus with 2 samples.

Results

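The data described here are the liver RNA of Wip1 knockout (KO) mice at 36 h after partial hepatectomy, the surgical removal of part of the liver, set against that at 24 h. Each time was measured on 1 mouse oligonucleotide array of 2 colours, with Wip1 KO RNA labelled with Cy5 and wild-type (WT) RNA labelled with Cy3. KO and WT mice were 3 months old, all had undergone the operation, and both genotypes had their liver taken at the same 2 times. The labels give no sex, no time of day, no number of animals per RNA, no details of the Wip1 allele and no unoperated liver. The members are the 6806 genes, of 18005 named on the array, whose KO spot exceeded its local background by more than 2 background SDs at both times. A level is the background-corrected intensity of the KO channel after its distribution was made equal between the arrays, and a log2 ratio is the level at 36 h over that at 24 h. WT values are given beside some results from the same spots, scaled within their own channel, and levels of different dyes are not set against each other.

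With 1 array per time there was no replicate, no test and no p-value, so precision is limited by how few arrays there are. Array and time cannot be told apart, and neither can time and animal. Differences were called at 2-fold or more. The errors that could be measured were technical: the log2 ratio had an SD of 0.15 over the 48 spots of a control gene (pooled over 4 control genes) and of 0.37 between probes of the same gene (695 genes). Of 31920 gene probes 33.2% were above background in the KO channel at 24 h and 31.1% at 36 h. All 12 hepatocyte markers on the array were measured, from the albumin gene Alb to the periportal P450 gene Cyp2f2, while 11 of 12 pancreas markers were above background at neither time. Ppm1d, the gene that encodes Wip1, was below background at both times on its only probe, at 0.09 background SDs above it at 24 h and 0.08 at 36 h, so the array does not check the genotype.

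After partial hepatectomy, hepatocytes leave quiescence, replicate their DNA and divide, while the remaining tissue keeps up metabolic and secretory work. In mice, hepatocyte DNA synthesis is usually followed within hours by mitosis, and stellate, duct and endothelial cells divide later. Wip1 is a phosphatase that removes phosphate groups from p53 and from kinases of the DNA damage response, and so acts on the checkpoints through which replicating cells pass.

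Between 24 h and 36 h, genes of DNA replication, mitosis, stellate cells with their matrix and bile duct cells were lower in Wip1 KO liver, liver genes known as female-biased were lower and male-biased ones higher, and most genes of hepatocyte metabolism stayed within 2-fold. Of the 6806 genes, 171 (2.51%) passed 2-fold upwards and 243 (3.57%) passed it downwards at 36 h. At least 4-fold differences were found for 14 higher and 27 lower genes. The median log2 ratio of all genes was 0.05 and the SD 0.53. The split between the directions rested on the scaling: 41.3% of called genes were higher as given here, 70.3% (357 higher, 151 lower) when the medians of all gene probes were made equal, and 87.4% (638 higher, 92 lower) when the arrays were centred on the 4 control genes. These 2 other scalings moved the median of all genes to 0.26 and 0.43, so that a gene or group within about 0.4 of the median of all genes has no settled direction, and results are to be read against that median. Of the 126 measured genes named here that passed 2-fold, 83 were lower and 43 higher. With the medians made equal 23 of the 83 came under 2-fold, and 40 after centring on the control genes. These 2 scalings raise the ratios as a whole, so they could hardly bring the 43 higher genes under 2-fold, and none came under it. Under other alternatives some higher genes did: 2 with loess scaling, 1 with mean pixels and 1 with equal medians of the measured probes, beside 1, 9 and 4 lower ones.

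**Figure D1:**
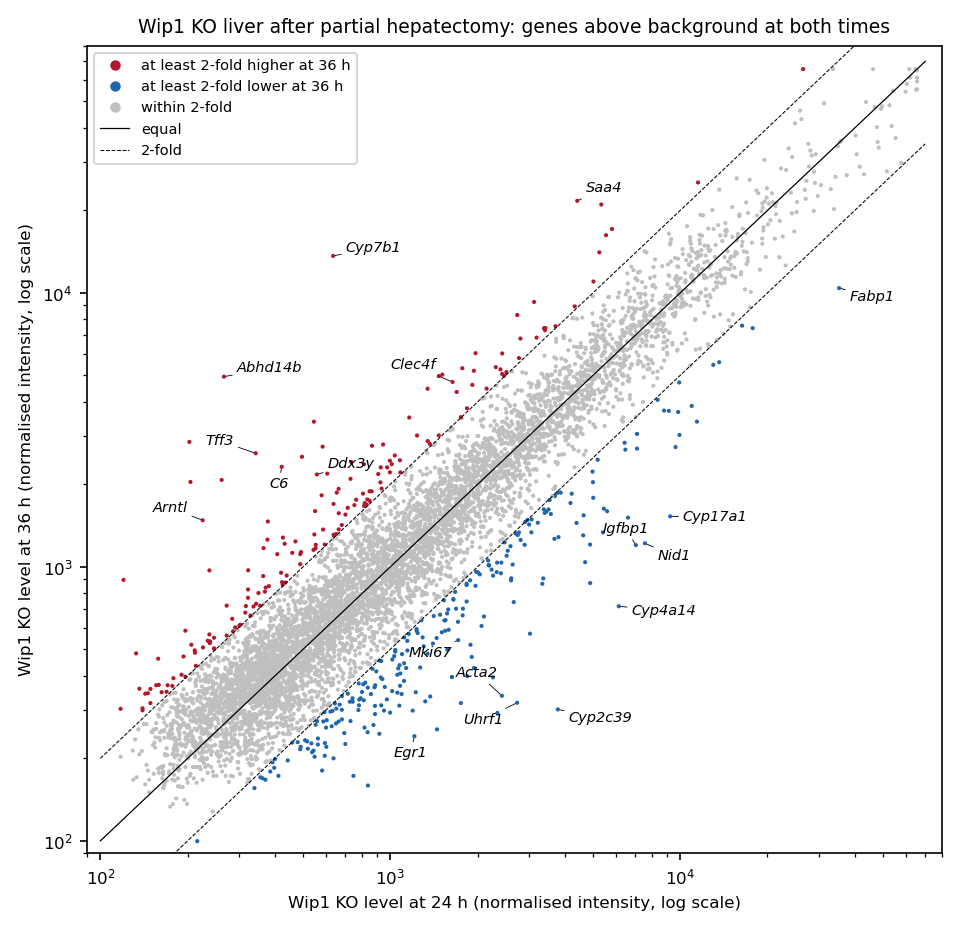
Level of each gene in Wip1 KO liver at 24 h (x axis) and at 36 h (y axis), as normalised intensity on log scales, 1 point per gene (6806 genes). Red points are the 171 genes that rose 2-fold or more and blue points the 243 that fell as much, and dashed lines mark 2-fold; Cyp7b1 and Cyp2c39 lie farthest from the line of equal levels among the labelled genes that rose and fell.

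Of genes brighter than the median, Cyp7b1 rose the most. Its level went from 635.3 at 24 h to 13647 at 36 h, 21.5-fold. Cyp7b1 is an oxysterol 7-alpha-hydroxylase of the alternative pathway of bile acid synthesis. Abhd14b, a hydrolase gene, rose from 267 to 4948, and on the same spot WT had a log2 ratio of 2.30. The metastasis suppressor gene Mtss1 rose from 545 to 3389, a log2 ratio of 2.64, with 2.87 for WT. For these 2 genes, then, the spot was brighter at 36 h in both channels, unlike Cyp7b1, for which WT had -0.67. Tff3, a secreted trefoil peptide, rose 7.57-fold with 0.26 for WT, the complement gene C6 5.49-fold, the steroid dehydrogenase genes Hsd3b4 5.09-fold and Hsd17b2 3.33-fold, the serum amyloid gene Saa4 4.91-fold and G0s2, an inhibitor of the triglyceride lipase ATGL, 4.70-fold. Among the 15 highest were also the urinary protein gene Mup4 (3.93-fold), the Y-linked helicase gene Ddx3y (3.90-fold), the transporter gene Slco1a1 (3.61-fold), the nuclear receptor coactivator gene Pnrc1 (3.38-fold), the ephrin gene Efna1 (3.32-fold) and the heme synthesis gene Alas2 (3.29-fold).

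The lowest of the bright genes was Cyp2c39, a P450 gene, which fell from 3784 at 24 h to 302 at 36 h, 12.5-fold. It was also lower at 36 h in WT, with a log2 ratio of -4.65. The next were Uhrf1, Cyp4a14 and Acta2, described with their groups below, and Nid1, a basement membrane protein gene, which fell from 7557 to 1219 (WT -0.24). Cyp17a1 (-2.59), Igfbp1 (-2.55), Col1a2 (-2.52) and Cyp2b9 (-2.49) came after these. The others were the actin-binding protein gene Tagln2 (-2.41), Ly6d (-2.21), the nucleoplasmin family gene Npm3 (-2.19), the protease inhibitor gene Slpi (-2.18), the galectin gene Lgals1 (-2.13) and 4930512M02Rik (-2.03). Members of the Cyp, Sult, Mup, Gsta and globin families have near-identical copies, and probes for them may pick up RNA of a copy.

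**Figure D2:**
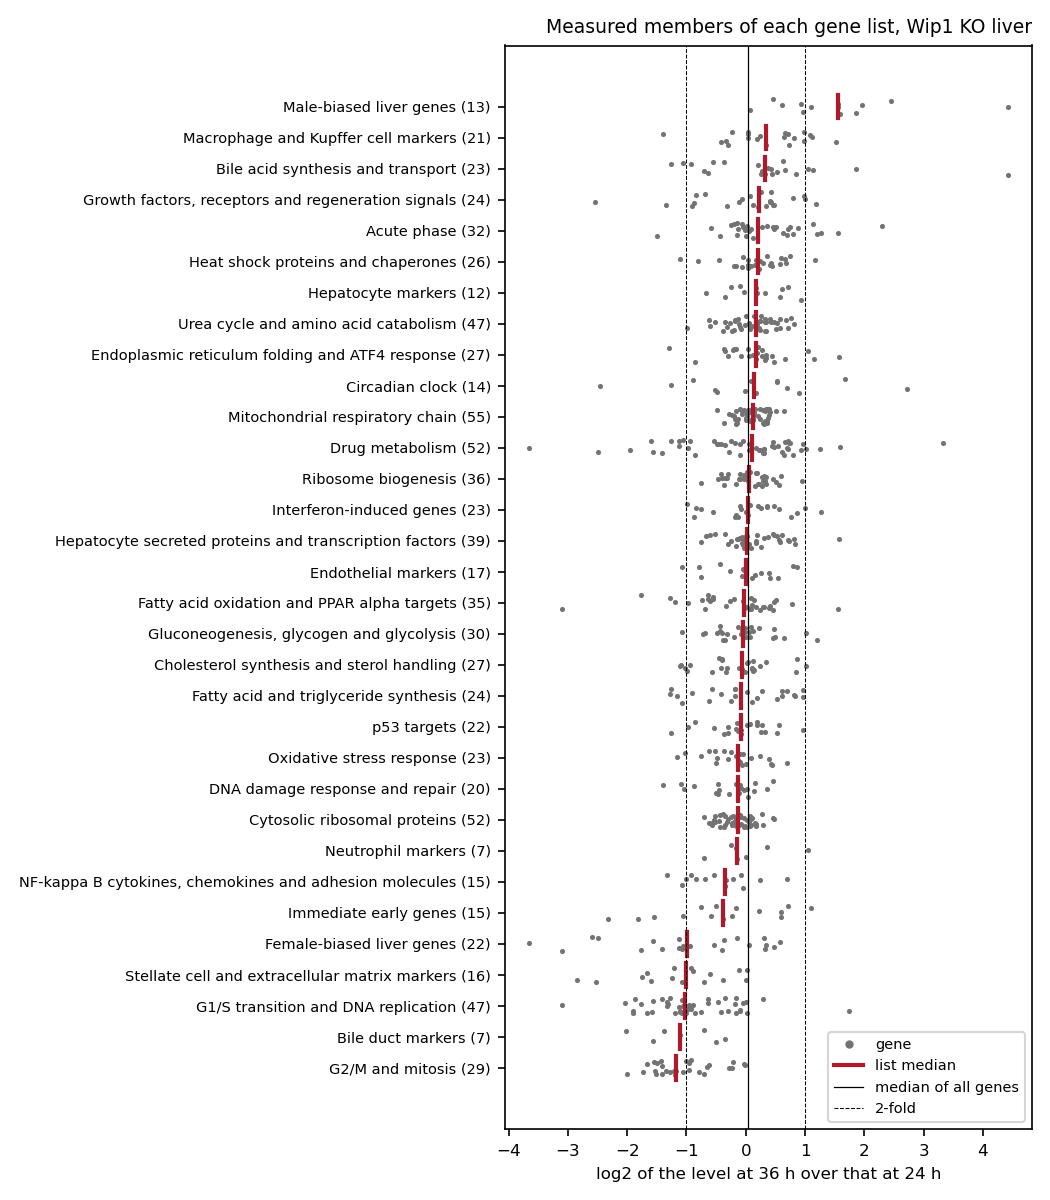
Log2 ratio of 36 h over 24 h in Wip1 KO liver (x axis) for the measured members of each gene list with 7 or more (number in brackets), ordered by the list median. Grey points are genes, red bars list medians, the solid line the median of all genes (0.05) and dashed lines 2-fold; the male-biased list lies highest at 1.55, and 5 lists have medians near or below -1.

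Genes that act in DNA replication and at the G1/S transition were lower at 36 h. Of 47 measured members 43 had a log2 ratio below 0 and 25 (53.2%) were at least 2-fold lower, against 3.57% of all genes, with a median of -1.03 against 0.05. After centring on the control genes, the median was -0.65 and 10 members were at least 2-fold lower. Uhrf1, which brings the maintenance methyltransferase to replicated DNA, fell from 2738 at 24 h to 319 at 36 h, 8.58-fold. Of the replicative helicase, Mcm4 fell from 1373 to 337, Mcm5 from 2064 to 609, Mcm3 from 931 to 312, Mcm6 from 3804 to 1284 and Mcm7 from 2236 to 977. Cdc45, which activates this helicase, fell from 917 to 246. Thus 5 of the 7 measured Mcm genes fell, while Mcm10, an initiation factor, rose from 377 to 1257 and was the only one of the 47 that was at least 2-fold higher. Mcm10 was at 5.0 background SDs at 24 h, and WT had -0.67 on the same spot. With spots left out by the scanner's quality flag, 40 members remained and none of them was at least 2-fold higher.

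The DNA ligase gene Lig1 fell from 3371 to 908 and Rrm2, the regulated subunit of ribonucleotide reductase, from 1891 to 520. Pcna, the sliding clamp, was the brightest member and fell from 9925 to 4711. The nucleotide synthesis genes Tyms (-1.12), Tk1 (-1.08) and Rrm1 (-1.05), the licensing factor gene Cdt1 (-1.07) and the cyclin gene Ccne2 (-1.11) each passed 2-fold by a small margin. Ccnd1, the cyclin that takes hepatocytes out of quiescence, had levels of 1135 and 625 and a log2 ratio of -0.86. At the other end, Orc3, Orc4 and E2f8 lay between -0.04 and 0.02. A further 13 members were above background at 24 h only, so that only an approximate bound can be given. It is the level at 24 h over the higher of the gene's own level at 36 h and the lowest level above background there (99.8). Where the gene's own level is the higher, as for E2f1 (782 and 132), the bound is the measured ratio. It allows for no error of the dim spot, so "at least", here and for all bounds below, is no strict limit. For 9 of these the bound was at least 2-fold, with E2f1, a transcription factor of replication genes, at least 5.93-fold lower and the cyclin gene Ccne1 at least 2.94-fold lower. Mcm2 was at least 1.84-fold lower. The median with bounds was -1.05. In WT the same 47 genes had a median of -0.62, and whether the genotypes differed could not be tested.

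Genes of G2 and mitosis were lower as well. All 29 measured members had negative ratios and 17 (58.6%) fell by 2-fold or more, with a median of -1.17. After centring on the control genes, 24 of 29 were below 0, 10 of them at least 2-fold. Mki67, the proliferation marker Ki-67, fell from 1715 at 24 h to 540 at 36 h, 3.17-fold. Cdk1, the kinase that starts mitosis, fell from 2610 to 893, its cyclin gene Ccnb2 from 1145 to 495, and Cdc20, which activates the anaphase-promoting complex, from 1015 to 352. The condensin gene Smc2 fell from 1195 to 299. Its partner Smc4 (-1.51), the spindle checkpoint kinase gene Ttk (-1.72), the survivin gene Birc5 (-1.17) and the centromeric histone gene Cenpa (-1.19) also fell. Aurka, a spindle pole kinase, had a log2 ratio of -0.96. Ube2s, which extends ubiquitin chains for the anaphase-promoting complex, and the securin gene Pttg1 had levels of 6345 and 6192, and of 1717 and 1694.

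Another 21 mitotic genes were above background at 24 h only, 14 of them at least 2-fold by their bound. The cyclin gene Ccna2 was at least 2.93-fold lower, Top2a, which disentangles sister chromatids, at least 3.04-fold and the kinesin gene Kif2c at least 2.51-fold. Top2a had a level of 353 at 36 h but did not exceed its local background by more than 2 background SDs there. Ccnb1 had a bound of 1.05 and Plk1 was not measured. In WT liver the same spots had the other direction for most of these genes: over the 28 genes measured in both, the median was -1.12 in Wip1 KO and 0.64 in WT. Cdk1 was 0.99, Mki67 0.94, Birc5 1.21 and Ccnb2 2.66 in WT. No test of this difference was possible, since each rests on 1 channel of the same 2 arrays. Taking both lists, 42 of 76 measured cell cycle genes were among the 243 genes (3.57% of all) that were at least 2-fold lower. After centring on the control genes, 10 of the 47 G1/S genes and 10 of the 29 G2/M genes were at least 2-fold lower.

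**Figure D3:**
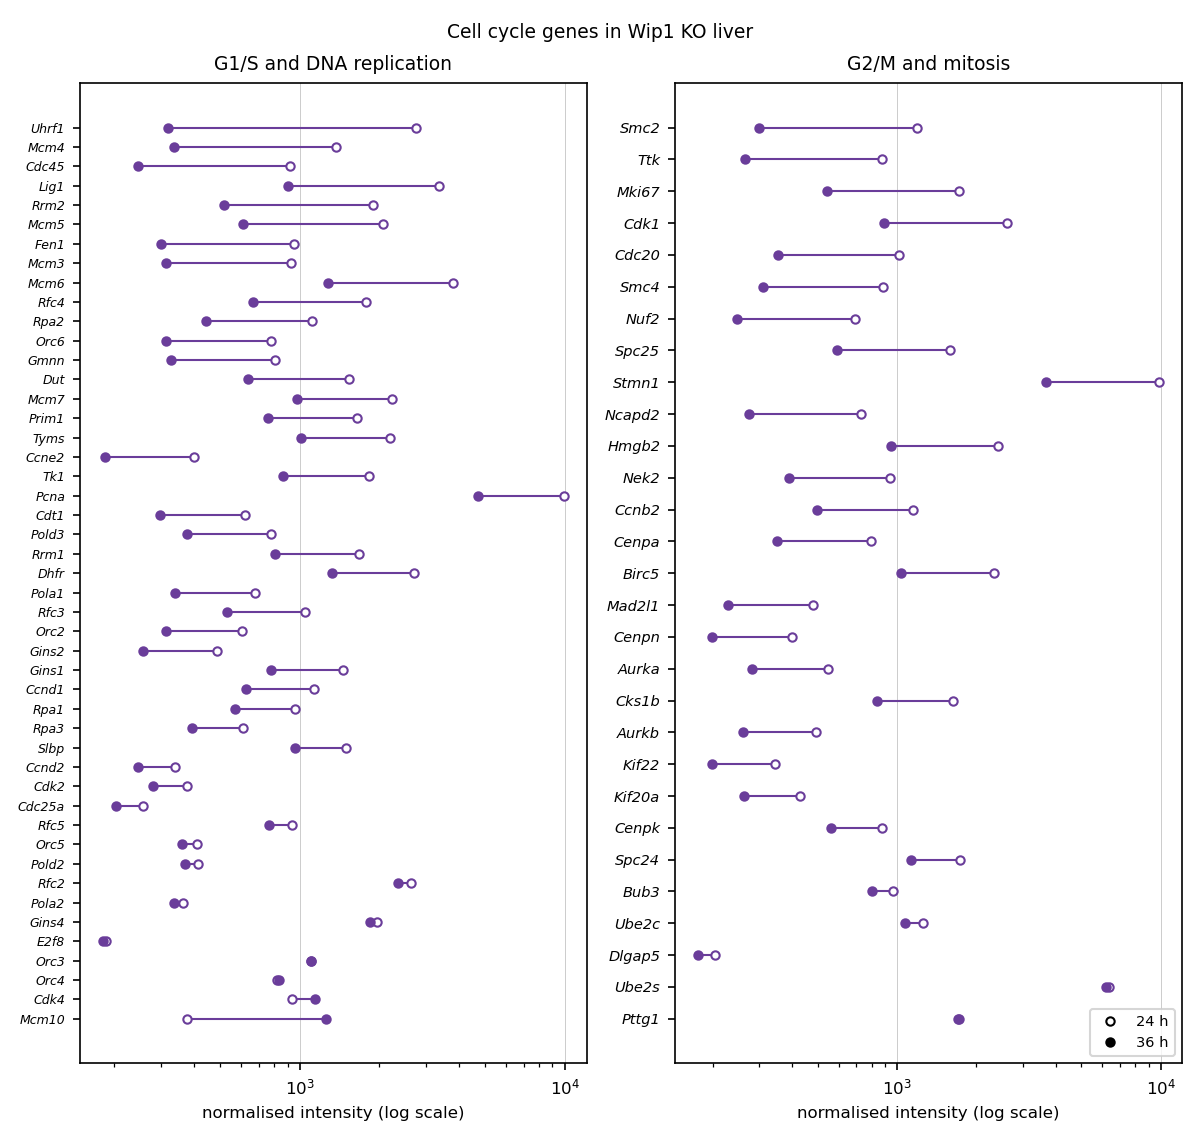
Levels of the 47 measured G1/S genes (left) and 29 measured G2/M genes (right) in Wip1 KO liver, as normalised intensity on log scales, with open circles for 24 h and filled circles for 36 h. Filled circles lie left of open ones for 43 and 29 genes, and Mcm10 is the only gene shifted to the right by 2-fold or more.

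Replication and mitotic genes are known to be switched by different promoter elements: E2F sites for the first, and the cell cycle homology region (CHR), often with CCAAT boxes, for the second. Promoters of RefSeq (GRCm38.p6), 250 bases before to 50 after the start, were searched on both strands for the E2F letters TTTCGCGC, TTTGGCGC, TTTCCCGC and TTTGGCGG, the CHR letters TTTGAA and TTCGAA, and CCAAT. Of the measured members, 37 of 47 G1/S genes had 46 promoters in the table and 23 of 29 G2/M genes had 26. E2F letters were in 34.8% of the G1/S promoters and 7.69% of the G2/M promoters, against 2.37% of all 32851 promoters and 4.06% of the 6925 promoters of the measured genes. CHR letters were in 13% and 69.2%, against 19.2% and 14.4%. CCAAT was in 58.7% and 80.8%, against 37.4% and 38%. A match of letters is a description and shows no binding. The 3 members of each list that fell most and held its letters before the start are printed to show the contrast, each as the 250 bases before the start on the gene's own strand, with matches on either strand in capitals. Overlapping matches run together, as at Mcm5 and Mcm6.
Uhrf1: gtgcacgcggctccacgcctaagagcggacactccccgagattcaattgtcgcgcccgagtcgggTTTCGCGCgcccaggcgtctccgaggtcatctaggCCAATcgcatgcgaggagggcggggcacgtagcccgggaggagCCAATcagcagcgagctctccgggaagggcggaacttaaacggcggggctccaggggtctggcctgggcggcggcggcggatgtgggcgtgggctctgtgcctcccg
Mcm5: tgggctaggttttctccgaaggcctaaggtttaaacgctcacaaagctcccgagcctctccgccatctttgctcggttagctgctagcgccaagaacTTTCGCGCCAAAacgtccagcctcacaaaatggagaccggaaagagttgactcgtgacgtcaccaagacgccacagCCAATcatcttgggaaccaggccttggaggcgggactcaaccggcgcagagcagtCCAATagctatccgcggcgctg
Mcm6: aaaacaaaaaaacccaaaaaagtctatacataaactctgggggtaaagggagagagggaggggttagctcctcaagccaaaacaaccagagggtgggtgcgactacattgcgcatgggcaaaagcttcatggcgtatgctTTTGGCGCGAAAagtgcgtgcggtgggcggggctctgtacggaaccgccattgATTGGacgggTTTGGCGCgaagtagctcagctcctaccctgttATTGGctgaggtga
Smc2: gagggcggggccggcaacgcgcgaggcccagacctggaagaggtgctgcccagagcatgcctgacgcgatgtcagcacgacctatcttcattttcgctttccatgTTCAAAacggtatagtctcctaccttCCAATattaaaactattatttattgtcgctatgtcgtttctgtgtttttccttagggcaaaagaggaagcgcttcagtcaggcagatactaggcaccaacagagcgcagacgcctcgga
Mki67: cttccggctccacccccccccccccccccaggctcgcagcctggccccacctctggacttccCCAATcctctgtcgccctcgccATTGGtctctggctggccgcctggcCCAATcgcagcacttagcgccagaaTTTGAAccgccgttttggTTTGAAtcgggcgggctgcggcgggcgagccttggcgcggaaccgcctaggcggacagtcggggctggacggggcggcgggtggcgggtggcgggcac
Cdk1: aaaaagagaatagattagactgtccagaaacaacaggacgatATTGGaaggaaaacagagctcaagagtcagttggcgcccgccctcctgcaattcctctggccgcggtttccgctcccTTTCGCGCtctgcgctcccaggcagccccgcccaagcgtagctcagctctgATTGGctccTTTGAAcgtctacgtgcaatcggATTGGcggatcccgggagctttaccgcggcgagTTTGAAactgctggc
These lie at chr17:56304063-56304312 (Uhrf1, plus strand), chr8:75109259-75109508 (Mcm5, plus), chr1:128359706-128359955 (Mcm6, minus), chr4:52438971-52439220 (Smc2, plus), chr7:135716380-135716629 (Mki67, minus) and chr10:69352913-69353162 (Cdk1, minus). Uhrf1 holds 1 set of E2F letters and 2 CCAAT boxes, and Mki67 holds 2 CHRs and 3 CCAAT boxes. Cdk1 alone of the 6 holds letters of all 3 kinds.

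Early response genes gave a mixed picture. Immediate early genes are switched on within minutes to hours of the operation and of other stress. Of 15 measured, 4 (26.7%) were at least 2-fold lower and 1 (6.7%) higher, against 3.57% and 2.51% of all genes. The median was -0.39, which lies at -0.01 after centring on the control genes. Egr1, a zinc finger transcription factor, fell from 1211 at 24 h to 241 at 36 h, Ier3, a survival gene, from 1225 to 349, and Klf6, a Krueppel-like factor, from 594 to 205. Gadd45b fell from 1040 to 497, whereas its relative Gadd45g rose from 3196 to 6867. Myc was above background at 24 h only and at least 2.38-fold lower, and Jun had levels of 935 and 832.

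Of 24 growth factor and receptor genes 1 (4.2%) was at least 2-fold higher and 2 (8.3%) lower, against 2.51% and 3.57% of all genes. Igfbp1, a secreted IGF-binding protein known as an early gene of liver regeneration, fell from 7032 to 1201, 5.86-fold, whereas WT went from 1816 to 5056 on the same spot. Hbegf, a ligand of the EGF receptor, fell from 537 to 211, and Inhbe, an activin subunit of hepatocytes, rose from 351 to 803. Igf1 (0.25) and Socs3 (0.41) stayed within 2-fold. Egfr, the EGF receptor, had a log2 ratio of 0.46 on its brightest probe, but its 3 measured probes ranged up to 1.92, so whether it passed 2-fold depends on the probe. With the mean over probes 2 growth genes were at least 2-fold higher, and after centring on the control genes 4 were higher and 1 lower.

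Of 22 measured p53 targets only Trp53inp1, a mediator of p53-dependent stress responses, was at least 2-fold different, falling from 1686 to 704. This is 4.5% of the list, near the 3.57% of all genes that were at least 2-fold lower. The median was -0.08, or 0.30 after centring on the control genes, where 1 member was at least 2-fold higher and none lower. With the medians made equal, 1 was higher and 1 lower. Cdkn1a, the inhibitor of cyclin-dependent kinases, had levels of 1127 and 912, Mdm2, the ligase of p53, 673 and 616, and Ccng1 445 and 508. Phlda3, a p53-induced repressor of Akt, was above background at 24 h only and at least 2.84-fold lower. Of 20 DNA damage and repair genes 3 fell (1 after centring on the control genes), among them Brca2 (-1.10) and Ung (-1.04), and Chek1, the checkpoint kinase gene of replicating cells, was at least 4.86-fold lower. Atm had levels of 226 and 312.

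The tissue around the hepatocytes differed by cell type. In bulk tissue, fewer cells of a type and less RNA per cell cannot be told apart. The stellate cell and matrix list had 16 measured members, of which 8 fell by 2-fold or more and 15 had negative ratios, with a median of -0.999, or -0.62 with 5 called after centring on the control genes. The summed level of the list was 48824 at 24 h and 30360 at 36 h. Acta2, the smooth muscle actin of activated stellate cells, fell from 2428 to 338, 7.17-fold, and the collagen genes Col1a2 and Col1a1 from 2260 to 395 and from 563 to 236. Collagen genes measured at both times did not all move one way. Of 8 such genes whose symbols start with Col, 3 were at least 2-fold lower, namely these and Col14a1. The gene Col8a2 was higher (1.06), and the median was -0.01. The 8 leave out Col5a1, Col5a2 (679 and 188) and Col6a1 (507 and 164), which were above background at 24 h only. No stellate list member was above background at 36 h only. This family and Col8a2 were picked after their values were seen. Sparc, a matrix glycoprotein gene, fell 3.34-fold and the intermediate filament gene Vim from 4643 to 1543. Dcn (-0.38), a proteoglycan gene, was within 2-fold. All 5 members above background at 24 h only were at least 2-fold lower by their bound, among them the protease inhibitor gene Timp1 (at least 5.16-fold) and Col5a1, a collagen gene (at least 4.60-fold). In WT the 16 genes had a median of 0.05.

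All 7 measured bile duct markers were below 0, and 4 (57.1%) were at least 2-fold lower, against 3.57% of all genes. The median of the 7 was -1.11. With the control-gene centring their median was -0.73, 6 were negative and 2 passed 2-fold. Spp1, the osteopontin gene, fell from 4889 to 1206, and the duct keratin genes Krt19 and Krt7 from 973 to 328 and from 776 to 300. Krt8 (-1.11) and Krt18 (-0.70) are also keratins of hepatocytes. Prom1, a duct and progenitor marker, was above background at 24 h only and at least 9.42-fold lower.

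Macrophage markers did not follow the stellate and duct genes. Of 21 measured, 3 (14.3%) were at least 2-fold higher and 1 (4.8%) lower, against 2.51% and 3.57% of all genes. The list median was 0.34, which is within the range where the scaling decides. With the medians made equal 7 were higher, and 10 after centring on the control genes. The summed level was 42732 at 24 h and 53689 at 36 h. Clec4f, a lectin receptor of Kupffer cells, which are the liver's own macrophages, rose from 1640 to 4732. Vsig4, a complement receptor, rose from 833 to 1763 and the complement gene C1qa from 3428 to 7445. The broader myeloid marker Lyz2, a lysozyme gene, fell from 7095 to 2702, and Cd68 had levels of 1192 and 1225. Of 17 endothelial markers only the scavenger receptor gene Stab1 passed 2-fold, falling from 2006 to 954, while Pecam1 had 373 and 375, and the median was 0.01. Under either other scaling none of the 17 was at least 2-fold lower and 2 were higher.

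Of 7 neutrophil markers only Prtn3 (14.3%) was at least 2-fold higher, with levels of 292 and 601. None of the 7 was so with loess scaling, mean pixels or equal medians of the measured probes. The same held for the 5 markers left with a filter at 5 background SDs and the 5 left by the quality flag. S100a8 had levels of 2782 and 2345. The hemoglobin genes Hba-a1 (-0.88) and Hbb-b1 (-0.80) were within 2-fold while Alas2 rose. Only 2 of 20 lymphocyte markers on the array were measured at both times.

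**Figure D4:**
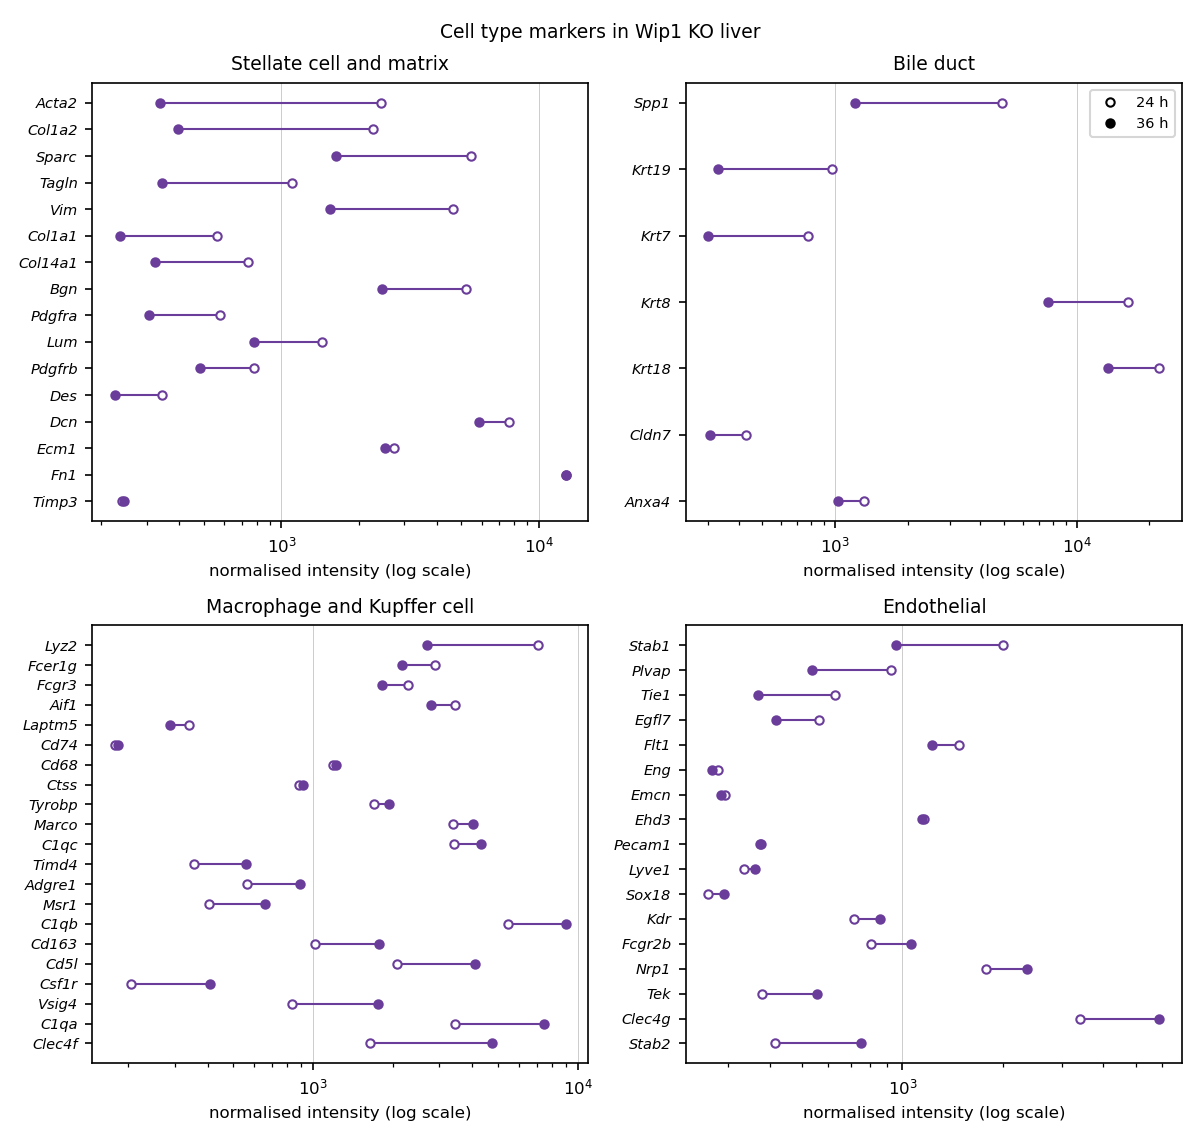
Levels of the measured markers of stellate cells and matrix (16), bile duct (7), macrophages and Kupffer cells (21) and endothelium (17) in Wip1 KO liver, as normalised intensity on log scales, with open circles for 24 h and filled circles for 36 h. Stellate and duct markers are shifted to the left, from Acta2 and Spp1 downwards, and Kupffer cell genes such as Clec4f to the right.

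Liver genes that differ between the sexes moved as 2 groups, and with them a Y-linked gene. Such genes are set by the pattern of growth hormone secretion, which differs between male and female mice. All 13 measured male-biased genes had positive ratios, and 8 (61.5%) rose 2-fold or more, against 2.51% of all genes, with a median of 1.55. Besides Cyp7b1, C6 rose from 422 at 24 h to 2319 at 36 h, the serpin gene Serpina3c from 378 to 1464, the organic anion transporter gene Slco1a1 from 606 to 2190 and the P450 gene Cyp2d9 from 2742 to 8304. Elovl3, a fatty acid elongase gene, was above background at 36 h only, at 7966, and at least 83.8-fold higher. Hsd3b5 and Cyp4a12b, a steroid dehydrogenase and a P450 gene, were at least 43.8-fold and 34.3-fold higher in the same way. In WT the 13 genes had a median of -0.59, and Elovl3 had levels of 98.8 and 180 on its spot.

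Among the 22 measured members of the female-biased list, 11 fell by 2-fold or more and none rose, 16 had negative ratios, and the median was -0.997. The count at least 2-fold lower was 7 with the medians made equal and also after centring on the control genes, where 14 were below 0 and the median was -0.62; none was at least 2-fold higher under either. Besides Cyp2c39, Cyp4a14, a fatty acid hydroxylase gene, fell from 6141 to 718, Cyp17a1, a steroid hydroxylase gene, from 9236 to 1529 and Cyp2b9 from 4891 to 873. Cyp2b13 was above background at 24 h only and at least 7.01-fold lower, and the sulfotransferase genes Sult2a2 and Sult1e1 fell from 1268 to 429 and from 1547 to 584. A1bg (0.33) and Sult3a2 (0.58), which are also female-biased, were dim at both times, with levels of 284 and 356 and of 251 and 375. In WT the 22 genes had a median of 0.37.

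Ddx3y had a level of 558 at 24 h and 2175 at 36 h, and 597 and 947 in WT. A probe of Eif2s3y, another Y-linked gene, went from 81.3 (0.10 background SDs) to 1853 (46.8), while its other probe had 194 and 171. Kdm5d had 156 and 256. Usp9y, above background at 24 h only, had 192 (3.17 background SDs) and 163 (1.23). The probes of Uty, Zfy1 and Sry were below background at both times and so show no direction. Ddx3y and Kdm5d, the 2 Y-linked genes measured at both times, were both above 0. The labels do not give the sex of the mice of either time, and the part of sex in any result given here was not tested.

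Genes of the circadian clock also differed between the times, which lie 12 h apart. Arntl, also known as Bmal1, an activator of the clock, rose from 225 at 24 h to 1480 at 36 h, and the repressor gene Cry1 from 365 to 1171. Nr1d2, a nuclear receptor that represses Arntl, fell from 1751 to 318 and Tef, an output gene, from 887 to 370, while Dbp, another output gene, was at least 4.14-fold lower. Per1 (-0.89), Nr1d1 (0.52) and Clock (0.54) were within 2-fold. In all, 2 of 14 measured clock genes (14.3%) were at least 2-fold higher and 2 (14.3%) lower, against 2.51% and 3.57% of all genes. After centring on the control genes 4 were higher and 1 lower. With a filter at 5 background SDs, 1 of 10 was higher and 1 lower. With spots left out by the scanner's quality flag, 1 of 11 was higher and 2 lower. In WT, Arntl (1.40), Nr1d2 (-1.28), Tef (-1.78) and Dbp (-1.41) had the same sign, whereas Cry1 had -0.06. The part of time of day in the other results was not tested.

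**Figure D5:**
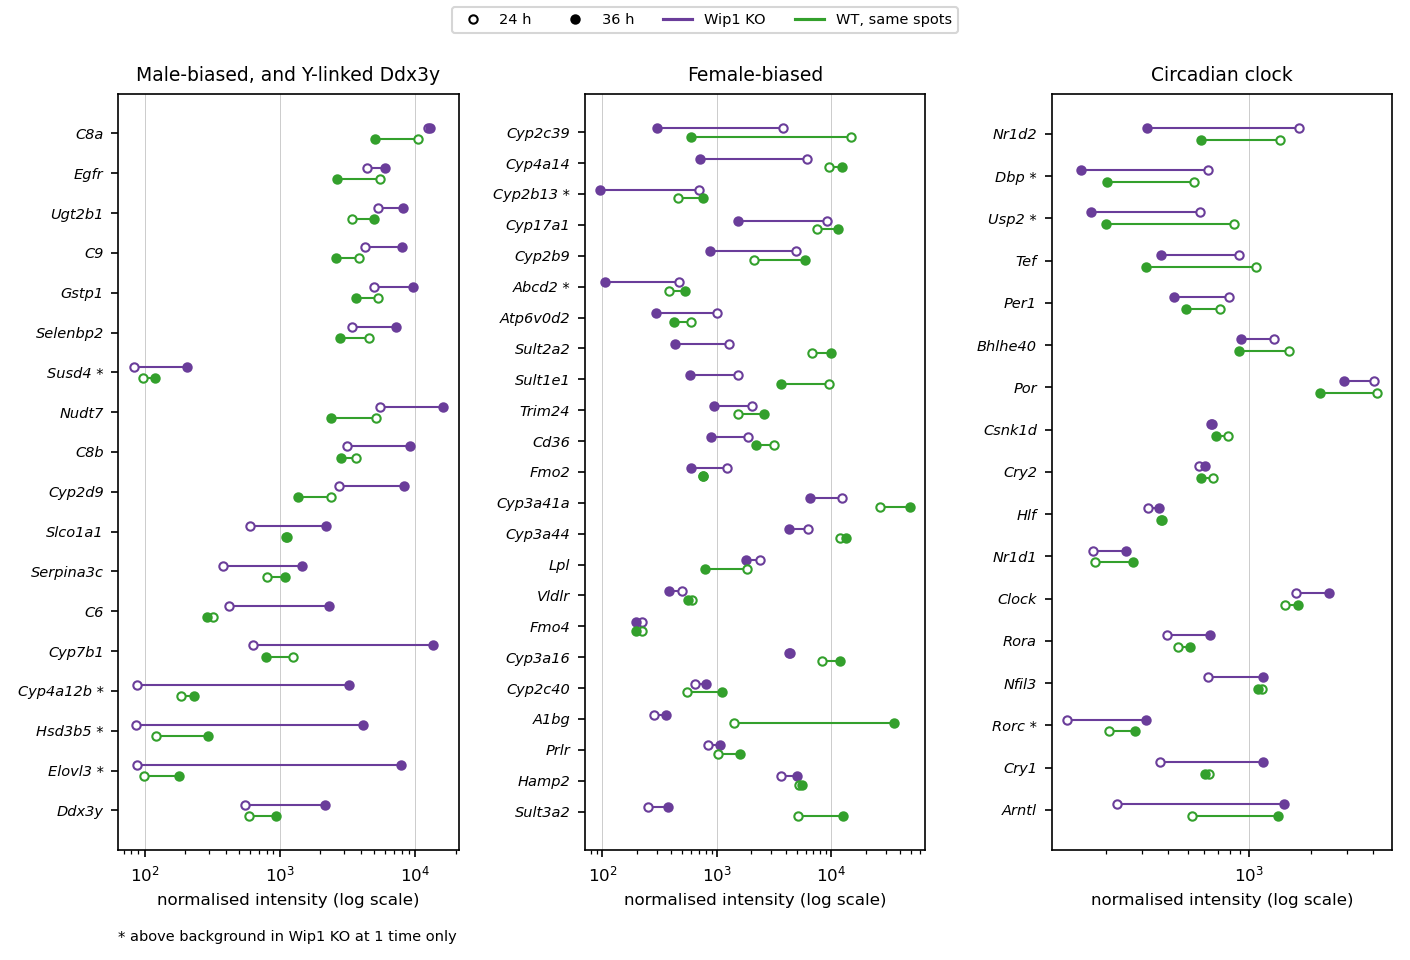
Levels of male-biased, female-biased and clock genes at 24 h (open circles) and 36 h (filled circles) as normalised intensity on log scales, in Wip1 KO (purple) and WT (green) on the same spots; genes with an asterisk were above background in Wip1 KO at 1 time only, with a bound of at least 2-fold. In Wip1 KO, Elovl3, Hsd3b5, Cyp4a12b and Cyp7b1 are shifted furthest to the right and Cyp2c39 and Cyp4a14 furthest to the left.

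Most genes of hepatocyte function stayed within 2-fold. Of 39 secreted proteins and liver transcription factors only Onecut1, the factor HNF6, passed 2-fold, rising from 944 to 2797. Alb had levels of 43075 and 27090, Ttr 65610 and 61092 and Hnf4a 3050 and 4529, though the brightest spots lie near the limit of the scanner. Cebpa, a transcription factor of mature hepatocytes, was above background at 36 h only and at least 2.47-fold higher. In the list for the urea cycle and for amino acid breakdown, none of 47 measured genes passed 2-fold, with a median of 0.17 and 11476 and 12093 for Ass1. Under either other scaling 5 of the 39 and 4 of the 47 were at least 2-fold higher. The 2 exceptions were dim at 36 h: Glul, the glutamine synthetase of pericentral hepatocytes, was at least 7.62-fold lower, and Bckdha, a subunit of branched-chain keto acid breakdown, at least 2.64-fold lower.

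Of 23 genes of bile acid synthesis and transport 4 (17.4%) rose and 2 (8.7%) fell, against 2.51% and 3.57% of all genes. The list median was 0.32, and after centring on the control genes 7 rose and none fell. Besides Cyp7b1 and Slco1a1, Scp2, a sterol carrier and thiolase gene, rose from 11522 to 25299 and Hsd3b7, an enzyme of the steroid ring, from 2432 to 5060. Cyp8b1, the sterol 12-alpha-hydroxylase, was above background at 36 h only and at least 17.6-fold higher. The export transporter gene Slc51b fell from 628 to 262 and Slco1a4 from 3385 to 1621, and the bile salt pump gene Abcb11 had levels of 5473 and 6826.

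Drug metabolism genes moved both ways, with a median of 0.11. At least 2-fold higher were 4 of 52 (7.7%) and lower 10 (19.2%), against 2.51% and 3.57% of all genes. The balance turned with the scaling, to 13 higher and 6 lower with the medians made equal and to 14 and 6 after centring on the control genes. Nat8, an acetyltransferase gene, rose from 205 to 2042. Of the glutathione transferases, Gsta1 fell from 3345 to 867, Gsta2 from 4390 to 1446 and Gsta4 from 13008 to 5463, whereas Gsta3 (0.71) was within 2-fold. Cyp2b10, a target of the receptor CAR, fell from 3515 to 1620. Cyp1a2 (0.25), Cyp2e1 (0.72) and Cyp3a11 (0.54) were within 2-fold.

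Of 35 genes of fatty acid oxidation and PPAR alpha targets, 4 (11.4%) fell and 1 (2.9%) rose, with a median of -0.04. Among all genes 3.57% fell and 2.51% rose as much. Besides Cyp4a14, Fabp1, the fatty acid-binding protein of liver, fell from 35349 at 24 h to 10417 at 36 h, Angptl4, an inhibitor of lipoprotein lipase, from 2263 to 929 and Cyp4a10 from 4224 to 1850. Nudt7, a peroxisomal hydrolase gene that is also in the male-biased list, rose from 5550 to 16242. Cpt1a had levels of 5018 and 3313. Centred on the control genes, the list had 2 lower and 2 higher.

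Of 24 genes of fatty acid synthesis 4 (16.7%) fell, against 3.57% of all genes. Fasn, the fatty acid synthase, fell from 2908 to 1204 and the elongase gene Elovl6 from 790 to 331. The phosphatase gene Lpin1 fell from 3228 to 1449 and the fatty acid transporter gene Cd36 from 1885 to 893. Scd1 (0.28) and Acly (0.18) were within 2-fold. The direction of this list is not settled: with the medians made equal 4 members were higher and 2 lower, and after centring on the control genes 5 were higher and none was at least 2-fold lower. Of 27 cholesterol genes 3 (11.1%) fell and 1 (3.7%) rose, against 3.57% and 2.51% of all genes. Among those that fell was Hmgcs1 (-1.11), an early enzyme of the mevalonate pathway. Insig2 (1.02), which holds back sterol synthesis, rose by a small margin on its brighter probe and by 2.04 on the other. None of these cholesterol genes was at least 2-fold lower under either other scaling, with 2 higher with the medians made equal and 3 after centring on the control genes. Among 30 glucose genes 2 (6.7%) rose, the insulin signalling gene Irs2 being one of them with levels of 234 and 537. Only the transporter gene Slc2a2 (3.3% of the list) fell, from 2751 to 1307. Pck1 had 25195 and 19744. No glucose gene was at least 2-fold lower after centring on the control genes, and 3 were higher.

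Acute phase genes had a median of 0.20 over 32 members. At least 2-fold higher were 5 (15.6%) and lower 1 (3.1%), against 2.51% and 3.57% of all genes. With the medians made equal, and also after centring on the control genes, 11 were higher and 1 lower. Saa4 rose from 4415 to 21686, with -1.50 for WT on the same spot, the serpin gene Serpina3n from 5817 to 17107, the metalloreductase gene Steap4 from 5021 to 11006, A2m from 763 to 1759 and C4b from 547 to 1313. Orm3, an acid glycoprotein gene, fell from 10958 to 3869. Saa1 (0.74), Lcn2 (0.37) and Hp (-0.24) were within 2-fold.

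Of 15 NF-kappa B dependent cytokine and adhesion genes 13 were below 0, with a median of -0.35, or 0.03 after centring on the control genes. Against 3.57% of all genes, 3 (20.0%) fell by 2-fold or more. These were the chemokine genes Cxcl13 (563 and 225) and Ccl2 (1039 and 491) and the adhesion molecule gene Vcam1 (2921 and 1460). After that centring none of the 15 was at least 2-fold lower and 1 was higher. With the medians made equal, 1 was lower and 1 higher. Of 23 interferon-induced genes the GTPase gene Ifi47 rose 2.40-fold, Irgm1, with levels of 632 and 1263, came just short of 2-fold, and Irf7 (-0.12), Oas1a (0.26) and Usp18 (0.00) were well within it.

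Stress genes changed one by one. Of 26 chaperone genes Hsp90aa1 rose from 372 to 840 and Cryab, a small heat shock protein gene, fell from 652 to 304, with Hspa8 at 0.35. Each direction thus held 3.8% of the list, near the 2.51% and 3.57% of all genes. After centring on the control genes 4 chaperone genes were at least 2-fold higher and none lower. Of 27 genes of the unfolded protein and ATF4 responses, Asns, the asparagine synthetase, rose from 196 to 585, and Sel1l and Sdf2l1, which serve folding and degradation in the endoplasmic reticulum, from 239 to 534 and from 2149 to 4474. Herpud1, of the same degradation route, fell from 5001 to 2038, and Hspa5 had 5225 and 5381. With the control-gene centring 4 of the 27 were at least 2-fold higher and none lower. Of 23 oxidative stress genes Akr1b8 (-1.16), an aldo-keto reductase gene, and Gss (-1.02), the glutathione synthetase, fell, and Nqo1 had -0.10. Centred on the control genes, none of the 23 was at least 2-fold lower and 1 was higher. With the medians made equal, 1 was lower and 1 higher.

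Genes of ribosomes and mitochondria stayed within 2-fold. None of 52 cytosolic ribosomal protein genes, 36 ribosome biogenesis genes or 55 respiratory chain genes measured at both times was at least 2-fold different, with medians of -0.14, 0.06 and 0.12. After centring on the control genes, 1 biogenesis gene and 1 respiratory chain gene passed 2-fold. Rpl5 (-0.70) was the lowest ribosomal protein gene and Nop56 (-0.75), a nucleolar protein gene, the lowest of biogenesis. The nucleolar genes Npm1 and Ncl had levels of 6629 and 4782, and of 5757 and 4607. Above background at 24 h only were Rpl27a, with levels of 918 and 184, and the complex III gene Uqcrfs1, described with the bounds below.

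Of the genes above background at 1 time only, 951 were so at 24 h, 219 of them at least 2-fold by their bound, and 420 at 36 h, 99 of them at least 2-fold. The largest bounds at 36 h, after those of Elovl3, Hsd3b5 and Cyp4a12b, were 29.5-fold for the integrin gene Itgb1, 17.6-fold for Cyp8b1, and those of Sap30l, a gene of the SIN3 corepressor family, Ppp1r3c, a glycogen-targeting phosphatase subunit, and Scara5, a ferritin receptor. The largest at 24 h were 16.7-fold for Uqcrfs1, the Rieske protein of complex III, and 14.6-fold for Gpnmb, a glycoprotein of phagocytes. Itgb1 went from 87.2 to 2804 in Wip1 KO and from 75.5 to 2058 in WT, Sap30l from 95.8 to 1677 and from 101 to 2295, and Uqcrfs1 from 5231 to 312 and from 4291 to 318. These 3 spots thus changed alike in both channels, unlike Elovl3 and Prom1, which had 98.8 and 180, and 258 and 714, in WT.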

How the data were processed

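Total RNA was labelled by reverse transcription with Cy5 (Wip1 KO) or Cy3 (WT) and hybridised to 1 array per time, per the labels' protocols. Spots were quantified with LuxScan, per the file headers, and the deposited values are raw foreground and local background intensity of each spot in both channels, with no normalisation by the authors. The deposited quality flag, a score whose meaning the headers do not give, was used in 1 alternative. A deposited table of Wip1 KO over WT ratios gives no time course within a genotype and was not used.

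Median foreground of the Wip1 KO channel was corrected by normexp with an offset of 50 and quantile normalised over the 31920 gene probes of that channel alone (limma 3.58.1, R 4.3.3), which forces equal distributions and hides any general change. WT was treated alike. Spots up to 65535 were kept, of which 5 were saturated at 24 h and 15 at 36 h. Names were brought to current symbols with RefSeq's gene table: of the probes, 17637 carried a current symbol and 4972 an older one, 88 fitted more than 1 gene, 1666 fitted no gene, 29 names had become dates and 7528 were blank. The brightest measured probe stood for a gene. Counting used Python 3.11.15, numpy 2.4.6 and pandas 2.3.3, and figures matplotlib 3.10.9. The scripts were tested on simulated data.

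The members, the 39 gene lists and the rule for naming genes were chosen with earlier results of these data known. The rule names Ppm1d, the 15 highest and 15 lowest bright genes, up to 6 members of each list in the direction of its median and 3 against it, preset key genes, and the 8 largest bounds per direction. Not every gene it names is printed, and some results are not reported here. Bckdha, Col5a1, Col5a2, Col6a1, E2f1, E2f8, Gsta2, Gsta3, Gsta4, Mcm3, Mcm7, Orc3, Orc4, Pttg1, Rpl27a, Sult1e1, Sult3a2 and Ube2s were named after their values were seen. Alternatives were plain background subtraction, other scalings, other filters, the mean over probes, mean pixels and the quality flag.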

Additional observations from a re-analysis of the deposited data

Results flagged for a closer look

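Both groups of genes given here had medians on opposite sides of 0 in the 2 channels of the same arrays, further from the median of all genes than the SD between probes of a gene. Mitotic genes had a median log2 ratio, 36 h over 24 h, of -1.12 in Wip1 KO and 0.64 in WT over 28 genes measured in both. Male-biased liver genes had 1.55 in Wip1 KO and -0.59 in WT over 13 genes. These differences were not tested, since there was 1 array per time.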

How the results depend on the processing

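The count of genes at least 2-fold higher (171) became 311 with plain background subtraction, 357 with the medians of all gene probes made equal, 638 after centring on the control genes, 289 with no filter on dim spots and 270 with bounds added. The count of lower genes (243) became 151 with equal medians, 92 after centring on the control genes, 484 with no filter, 146 with a filter at 5 background SDs and 462 with bounds added. Loess, the mean over probes, mean pixels, leaving out spots by the quality flag, and equal medians of the measured probes (added after the data were seen) kept both counts within 1.5 times. List medians relative to that of all genes moved by no more than the SD between probes of a gene (0.37) in 350 of 352 comparisons of a list with an alternative. The exceptions were male-biased genes, at 1.05 with the filter at 5 background SDs, and bile duct markers, at -0.70 with no filter. Centring on the control genes adds the same amount to every gene. Its 32 comparisons therefore could not move and show nothing about stability, while the median of all genes itself went from 0.05 to 0.43. Ratios of named genes moved by more than that SD in 230 such comparisons and by less in 1703, and none of those past 2-fold turned its direction under these alternatives. Signal over background limits what dim genes show: 9814 named genes were above background at neither time. No paired analysis was possible because each time has 1 array.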

Other observations

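Small gene groups not described above gave these values in Wip1 KO liver. All 4 measured histone genes were above 0, and H1f3, a linker histone gene, rose from 273 to 561. Of the fetal and progenitor genes, Akr1c18, a hydroxysteroid dehydrogenase gene, fell from 2341 to 293 while Tff3 rose, and WT had 1418 and 6148 on the Akr1c18 spot. Of 16 measured genes whose symbols start with Nudt, a family of hydrolases, 4 were at least 2-fold higher and none lower, and of 13 measured Hsd genes, dehydrogenases of steroids and other substrates, 4 were higher and 1 lower. Among all genes 2.51% were as much higher and 3.57% as much lower. The Nudt and Hsd families were picked after their values were seen.

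The 4 control genes repeated on the array differed among themselves, with mean log2 ratios over 48 spots of -0.77 for M-ACTB, -0.51 for M-RPL5, -0.26 for M-LDHA and 0.01 for M-GAPD. The cytoskeletal actin control lay farthest from the median of all genes. A further 8 controls, named only Y1 to Y8, also had 48 spots each. Their mean log2 ratios were negative in 7 of 8, from -0.61 (Y2) and -0.59 (Y5) to 0.10 (Y4), with SDs over spots of 0.10 to 1.05. The control-centred scaling and the pooled SD of 0.15 did not use them.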
